A study of Mus musculus with 36 samples.

Results

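The Toll-like receptor genes Tlr1, Tlr2, Tlr3, Tlr4, Tlr5, Tlr6, Tlr7, Tlr8, Tlr9 and Tlr13 were followed in mouse bone marrow monocyte cultures by RNA sequencing. They were taken by gene name, 10 of the 38942 genes in the deposited expression table, and all 10 passed the filter on low values. Cells sorted as Ly6Chi, Ly6Cint or Ly6Cneg came from WT mice, called cWT in the treatment protocol, and from Irf8 cKO mice, in which Irf8 is the targeted gene. Each sorted population was measured as bone marrow macrophages in MCSF at day 0 (BMM), and after 4 days in 20 ng/ml MCSF with 40 ng/ml RANKL, which the labels call mature osteoclasts (OC). Mice of either sex were used; the labels give no age, no Cre driver and no floxed allele, so which cells had lost Irf8, and when, is not given in the sources used here. Genotype, stage and subset make 12 groups, 10 with 3 libraries and 2 with 2 libraries (WT BMM Ly6Cneg and WT OC Ly6Cneg), 34 libraries in all. Whether libraries of a group stem from different mice or dishes is not labelled; each p-value therefore refers to library-to-library spread, part or all of which may be technical.

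Toll-like receptors are membrane proteins that bind microbial molecules through leucine-rich repeats and signal through a cytoplasmic TIR domain. Tlr1, Tlr2, Tlr4, Tlr5 and Tlr6 act at the cell surface: Tlr2 pairs with Tlr1 or Tlr6 to bind bacterial lipopeptides, Tlr4 with its partner Ly96 recognises lipopolysaccharide, and Tlr5 recognises flagellin. Tlr3, Tlr7, Tlr8, Tlr9 and Tlr13 sit in endosomes and detect nucleic acids: double-stranded RNA for Tlr3, single-stranded RNA for Tlr7, unmethylated CpG DNA for Tlr9, and bacterial large-subunit ribosomal RNA for Tlr13. Mouse Tlr8 is of the same endosomal group. Myeloid cells are a main site of their expression, and in mouse cultures Toll-like receptor ligands given together with RANKL are known to hold back osteoclast formation from precursors. Irf8 is a transcription factor of monocytes and dendritic cells that binds DNA together with partners such as PU.1 and Irf1.

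Promoters of RefSeq on build GRCm38.p6, each 250 bases before to 50 bases after a transcript start, were at hand for 8 of the 10 genes in 10 windows, the exceptions being Tlr4 and Tlr7. They were searched on both strands for 4 motifs: the core of the interferon-stimulated response element, an ETS-IRF composite element, the PU.1 core GAGGAA and an NF-kappaB core. Matches may overlap one another. Those of 3 genes are shown, because Tlr9 had the widest range of all members and Tlr2 the next widest, and because Tlr6 alone among them held an interferon-type match; capitals mark the motif matches.
Tlr9 (chr9:106222348-106222647, plus strand): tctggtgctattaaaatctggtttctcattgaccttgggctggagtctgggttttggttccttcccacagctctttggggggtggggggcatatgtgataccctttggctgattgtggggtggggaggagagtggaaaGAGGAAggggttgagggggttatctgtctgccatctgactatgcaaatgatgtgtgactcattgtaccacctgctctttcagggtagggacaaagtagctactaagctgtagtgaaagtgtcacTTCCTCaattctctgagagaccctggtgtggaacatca
Tlr2 (chr3:83841559-83841858, minus strand): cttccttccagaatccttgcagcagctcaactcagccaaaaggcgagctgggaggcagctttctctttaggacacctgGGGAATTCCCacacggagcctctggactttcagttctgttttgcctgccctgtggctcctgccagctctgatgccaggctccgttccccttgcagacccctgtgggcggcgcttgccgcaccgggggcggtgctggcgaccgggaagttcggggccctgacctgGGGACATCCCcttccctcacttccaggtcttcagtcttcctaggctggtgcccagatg
Tlr6 (chr5:64959117-64959416, minus strand): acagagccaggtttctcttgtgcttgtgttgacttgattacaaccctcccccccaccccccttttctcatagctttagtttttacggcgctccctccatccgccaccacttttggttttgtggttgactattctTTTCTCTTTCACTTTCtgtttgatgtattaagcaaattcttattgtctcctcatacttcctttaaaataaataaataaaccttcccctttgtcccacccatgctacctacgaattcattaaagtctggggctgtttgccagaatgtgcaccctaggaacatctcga
In Tlr9 the capitals are GAGGAA, which began 112 bases before the start, and its complement at base 13 of the transcript. In Tlr2 they are GGGAATTCCC and GGGACATCCC, which began 172 and 8 bases before the start and match the NF-kappaB core on either strand. In Tlr6 they are overlapping copies of the interferon-stimulated response element core on the opposite strand, which began 116 and 110 bases before the start. Over all 32851 promoters of the table the interferon-stimulated response element core was present in 3.44%, the ETS-IRF composite in 2.72%, GAGGAA in 28.3% and the NF-kappaB core in 20.7%; among the 10 windows of these genes the counts were 1, 0, 4 and 3. These matches are a description of letters in the windows and not of binding.

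On build mm10 with the GENCODE M21 annotation, Tlr9 lies at chr9:106222598-106226883 on the plus strand, Tlr2 at chr3:83836272-83841767 on the minus strand and Tlr4 at chr4:66827584-66930284 on the plus strand. Tlr1 (chr5:64924679-64933563) and Tlr6 (chr5:64952031-64960097) are neighbours on the minus strand of chromosome 5. Tlr7 (chrX:167304929-167330558) and Tlr8 (chrX:167242696-167264329) are neighbours on the minus strand of the X chromosome, and Tlr13 (chrX:106143204-106160493) is X-linked as well. Tlr5 lies at chr1:182954788-182976044 on the plus strand, and Tlr3 at chr8:45395665-45411080 on the minus strand. The antisense gene Gm45542 covers 381 exon bases of Tlr3, 7.32% of its exon length, and whether the counting used strand is not given in the sources used here, so reads there may belong to either gene. Tlr1 shared 13.6% of its 50-base sequences with Tlr6, and Tlr6 12.3% with Tlr1, so reads from those stretches may have been split or lost and the values of this pair are to that extent uncertain.

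The deposited values are on a log2-like scale, on which 0 reads stand at 3.90. Low values fell on whole-read steps common to all libraries, so reads per gene could be recovered, and levels below are given as reads at a common depth (reads divided by the library's size factor, 0.573 to 1.42). Libraries held an estimated 20013100 to 53735351 reads. Differences and their tests are on the deposited scale, which compresses low levels: doubling from 10 to 20 reads moved a value by 0.45 to 0.50 instead of a full unit, so folds are given only as ratios of mean reads. A gene was called higher or lower when limma's adjusted p was under 0.05 over 38873 genes. In bulk samples such as these, fewer cells of a type and less RNA per cell cannot be told apart.

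Irf8 summed over the whole gene was higher, not lower, in cKO than in WT: its group means on the deposited scale were 11.84 to 14.25 in cKO and 10.10 to 13.55 in WT, and it was called higher in all 6 genotype comparisons. A gene total does not resolve the deleted part, so it does not check the labels. The Y-linked gene Ddx3y was at 4.72 to 6.21 in WT libraries and 10.43 to 10.86 in cKO libraries, and Xist at 13.67 to 15.17 and 12.08 to 13.83, so the sex mix of the mice and the genotype cannot be told apart; this touches the X-linked Tlr7, Tlr8 and Tlr13. Ly6c2, which encodes Ly6C, averaged 821 reads in WT BMM labelled Ly6Chi, 11913 in Ly6Cint and 5001 in Ly6Cneg, and 10397, 22503 and 3294 in cKO BMM, so in both genotypes it was lower in the cells labelled Ly6Chi than in those labelled Ly6Cint, against the labels. Markers of the labelled cells were present throughout, with 27231 to 140219.8 mean reads for Csf1r, the MCSF receptor, in BMM, and all 8 osteoclast markers rose from BMM to OC in every subset and genotype. Neutrophil markers were high in some BMM groups: the summed reads of 9 markers were 85459 to 112528 in WT Ly6Chi, 550077 to 607283 in WT Ly6Cint and 47587 to 55739 in WT Ly6Cneg, against 808023 to 1560019, 1401477 to 1588253 and 42338 to 97318 in cKO. They were called higher in cKO for 9, 8 and 4 of the 9 genes. Of 6 markers of plasmacytoid dendritic cells, which are rich in Tlr7 and Tlr9, the summed reads were highest in WT BMM Ly6Cint, the group with most Tlr9, at 26774 to 31756, against 3986 to 4726 in cKO BMM Ly6Cint. Most of the sum in that WT group was Bst2, which is also among the 26 interferon-stimulated genes counted below. In that group Bst2 averaged 25705 reads, Tcf4 4125, Ccr9 31.4, Cox6a2 17.3, Siglech 12.1 and Ly6d 1.33. In WT BMM Ly6Cneg the sum was 5371 to 5417, with Siglech at 195, Cox6a2 at 311 and Ly6d at 91.7, each higher than in WT BMM Ly6Cint. Markers of mast cells, basophils and eosinophils were highest of all groups in WT BMM Ly6Cneg, the group with most Tlr4. The log2 of their summed levels was 11.97 to 12.29 there and 8.37 to 8.80 in cKO BMM Ly6Cneg. Conventional dendritic cell markers, also highest there among BMM groups, were at 12.55 to 12.61 and 11.17 to 11.35. The part of all these cells and of sex in the results below was not tested.

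Per kilobase of exon, the members fell into a high, a middle and a low set that held in most groups. Tlr13 was the highest member in 10 of the 12 groups, from 586 ± 54.6 reads per kilobase (SD, n = 3) in cKO OC Ly6Cint to 2676 ± 131 (SD, n = 3) in cKO OC Ly6Cneg. In the other 2, WT BMM Ly6Chi and WT BMM Ly6Cint, Tlr2 led with 2437 ± 53.0 and 5549.8 ± 90.4 reads per kilobase (SD, n = 3 each). Tlr7, Tlr8, Tlr1 and Tlr4 mostly followed. Tlr3 and Tlr5 stayed low, with Tlr5 last in 10 groups at 5.83 to 32.2 reads per kilobase. Tlr9 moved most in rank: it ranked 3 in WT BMM Ly6Cint with 1763 ± 201 reads per kilobase (SD, n = 3) and last in cKO BMM Ly6Chi and Ly6Cint with 11.4 ± 3.53 and 14.9 ± 3.51 (SD, n = 3 each).

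**Figure D1:**
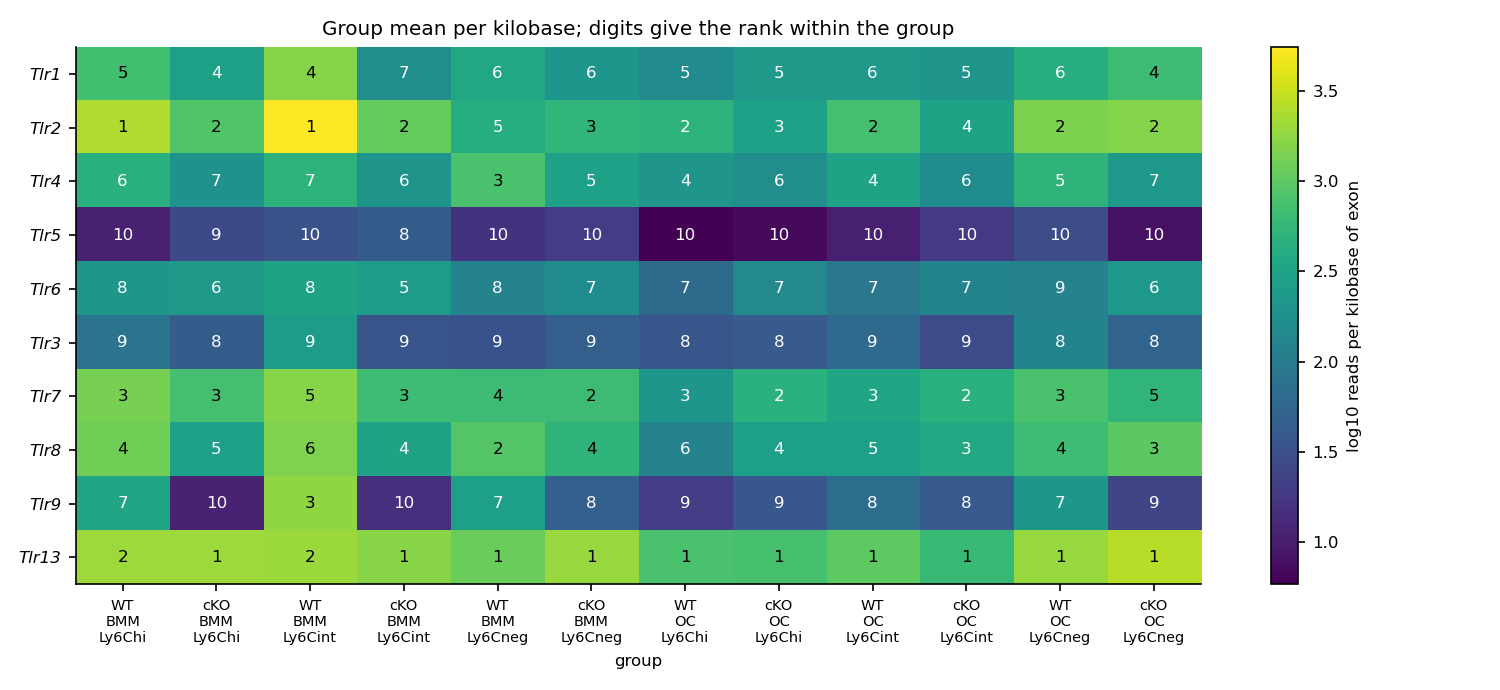
Mean reads per kilobase of exon (colour, log10 scale) of the 10 Toll-like receptor genes in the 12 groups, rows ordered from surface to endosomal receptors; the digit in each cell is the rank of the gene within the group. Tlr13 is ranked first in 10 groups, and Tlr9 has rank 3 in WT BMM Ly6Cint but last in cKO BMM Ly6Chi and Ly6Cint.

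Across the 12 groups Tlr9 had the widest span between its highest and lowest group mean, 5.60 on the deposited scale, followed by Tlr2 with 4.03, Tlr8 with 3.18 and Tlr1 with 3.0. The spans of Tlr7, Tlr3, Tlr13 and Tlr4 were 2.7, 2.39, 2.2 and 2.06, and those of Tlr6 and Tlr5 were 1.78 and 1.67. Because that scale compresses low levels, this order is not an order of folds. Group means of Tlr5 ran from 27.9 to 209 reads, a wider fold than the 2523 to 11519 reads of Tlr13. WT BMM Ly6Cint was the highest group for 7 members, Tlr1, Tlr2, Tlr3, Tlr6, Tlr7, Tlr8 and Tlr9. Tlr4 peaked in WT BMM Ly6Cneg, Tlr5 in cKO BMM Ly6Cint and Tlr13 in cKO OC Ly6Cneg. With the groups put in order of their means, the libraries of neighbouring groups overlapped in 5 of 11 steps for Tlr9 and 4 of 11 for Tlr2. They overlapped in 9 of 11 for Tlr5 and Tlr8, 8 of 11 for Tlr3 and Tlr4, 7 of 11 for Tlr1, Tlr6 and Tlr7, and 6 of 11 for Tlr13. For all members but Tlr9 and Tlr2, most neighbouring groups thus had overlapping ranges. An overlap of ranges of 2 or 3 libraries is a description and no test of a difference.

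**Figure D2:**
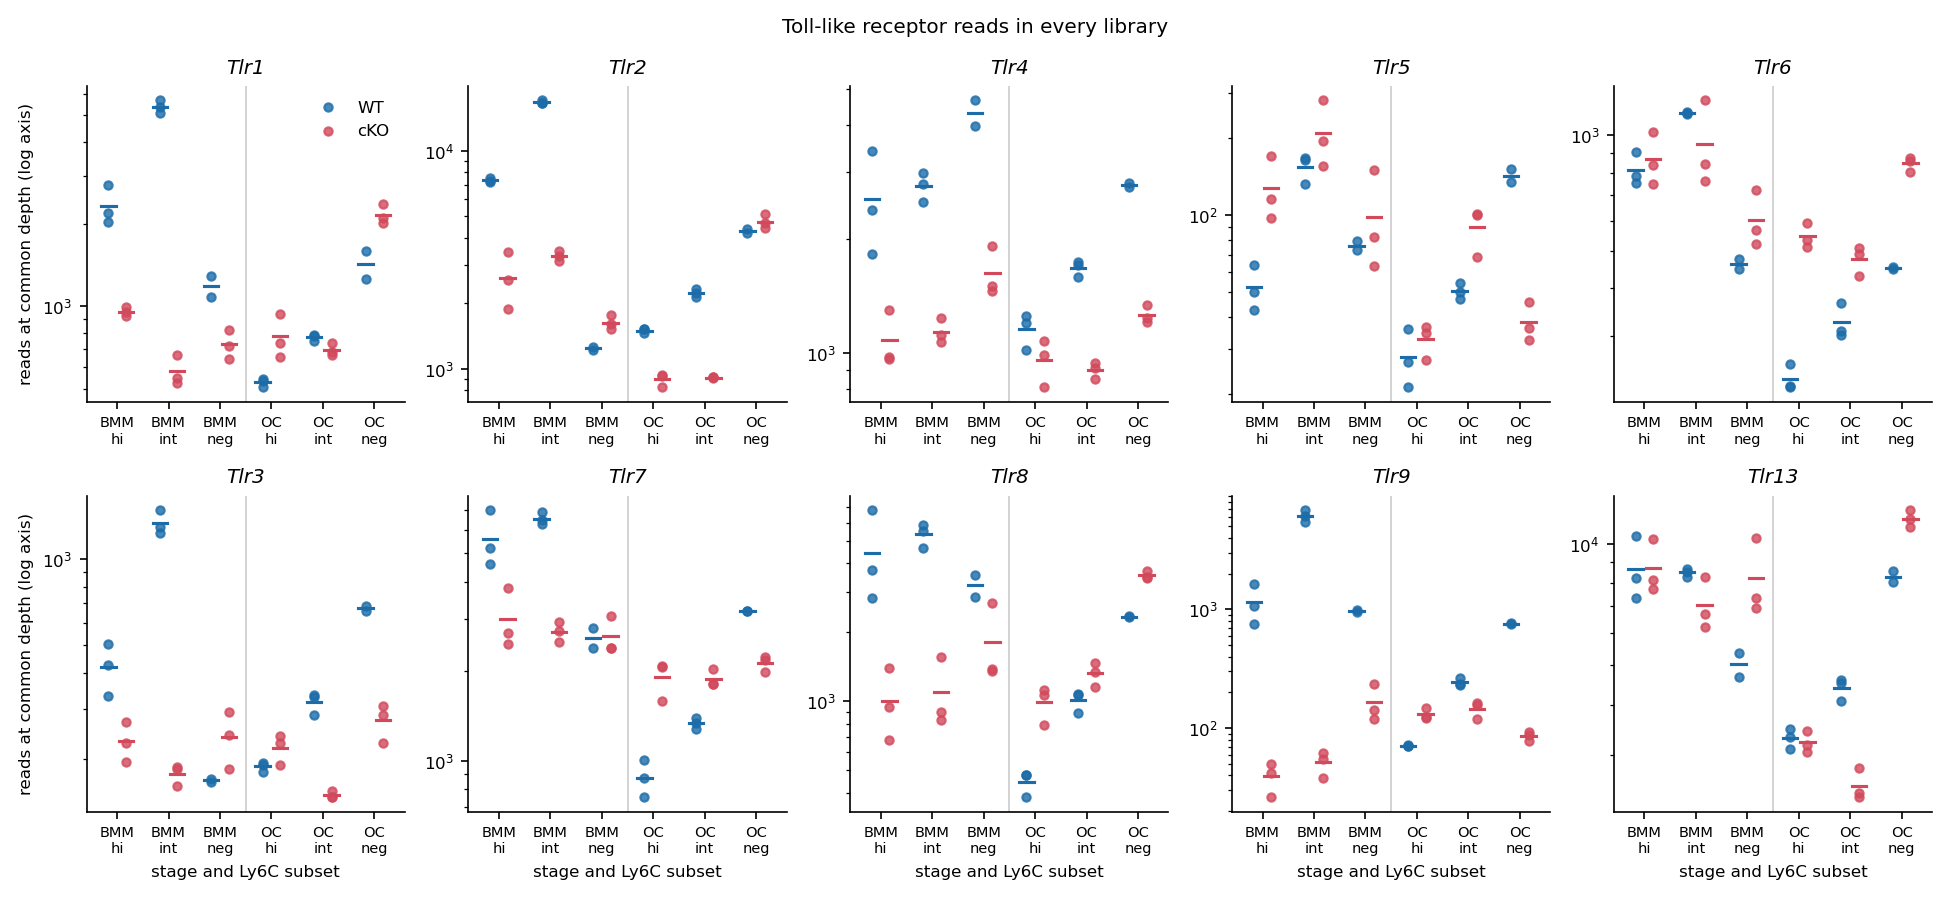
Reads at a common depth (log axis) of each Toll-like receptor gene in every library, by stage and Ly6C subset; points are libraries (blue WT, red cKO), bars are group means, and the vertical line parts BMM from OC. Tlr9 in WT BMM Ly6Cint stands at 5433 to 6834 reads and in cKO BMM Ly6Cint at 38.2 to 61.9 reads, while Tlr13 and Tlr6 overlap between genotypes in BMM Ly6Chi.

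The genotype comparison sets cells of Irf8 cKO mice against those of WT mice. At day 0 most members were lower in cKO cells of Ly6Chi and Ly6Cint, but not of Ly6Cneg. In BMM Ly6Chi 7 of 10 were called lower and 1 higher (29.7% of all genes tested were called in either direction, 15.3% lower and 14.4% higher). In BMM Ly6Cint 7 were lower and none higher (39.7% of all genes were called, 14.7% lower and 25% higher). Voom on the recovered reads, an alternative fit chosen after seeing the data, also called Tlr6 and Tlr13 lower there. In BMM Ly6Cneg 3 were lower and 2 higher (23.1% of all genes, 9.42% lower and 13.6% higher). The median difference of the members was -1.70 in BMM Ly6Cint, where that of all genes was 0.28, and -0.98 in BMM Ly6Chi. In BMM Ly6Cneg it was 0.09, where that of all genes was 0.27. The 7 members called lower were the same genes in Ly6Chi and Ly6Cint: Tlr1, Tlr2, Tlr3, Tlr4, Tlr7, Tlr8 and Tlr9. These 3 comparisons use separate libraries.

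Tlr9, the receptor for CpG DNA, differed most. In WT BMM Ly6Cint its 3 libraries held 6126, 5433 and 6834 reads, and in cKO BMM Ly6Cint they held 55.2, 61.9 and 38.2. Every WT library stood far above every cKO library. Mean reads were 118-fold lower in cKO (difference -5.38 ± 0.16 (SE), adjusted p = 1.84e-25). In BMM Ly6Chi the WT libraries held 1627, 748 and 1067 reads and the cKO libraries 50.3, 42.2 and 26.2, again without overlap. That was 29-fold lower in cKO (difference -3.28 ± 0.16 (SE), adjusted p = 3.98e-19). In BMM Ly6Cneg the 2 WT libraries held 959 and 987 reads and the cKO libraries 120.0, 142 and 236, the smallest of these gaps and still without overlap, 5.86-fold lower (difference -1.94 ± 0.18 (SE), adjusted p = 1.11e-10). Of the 9 neutrophil markers, 9, 8 and 4 were called higher in cKO in Ly6Chi, Ly6Cint and Ly6Cneg, and their part in these gaps was not tested.

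Tlr8 and Tlr7, the X-linked RNA-sensing pair, were lower in cKO BMM Ly6Chi and Ly6Cint. Tlr8 held 5518, 4658 and 5878 reads in WT BMM Ly6Cint and 897, 1558 and 829 in cKO, with no overlap, 4.89-fold lower (difference -2.2 ± 0.27 (SE), adjusted p = 5.16e-07). In BMM Ly6Chi it was 4.41-fold lower (difference -1.92 ± 0.27 (SE), adjusted p = 3.07e-06). Tlr7 held 6471, 6280.2 and 6911 reads in WT BMM Ly6Cint and 2521, 2927 and 2731 in cKO, also apart, 2.40-fold lower (difference -1.24 ± 0.13 (SE), adjusted p = 2.32e-09). It was 1.87-fold lower in Ly6Chi (difference -0.89 ± 0.13 (SE), adjusted p = 1.52e-06). In BMM Ly6Cneg neither passed the test: Tlr8 differed by -0.82 ± 0.30 (SE), adjusted p = 0.053, and Tlr7 by 0.01 ± 0.15 (SE) with overlapping libraries. With voom on the recovered reads Tlr8 was called lower there (difference -0.89 ± 0.30 (SE), adjusted p = 0.0273). Both genes are X-linked, and the libraries of the genotypes differ in sex-linked RNA as given above.

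Tlr3, the sensor of double-stranded RNA, held 1293, 1233 and 1478 reads in WT BMM Ly6Cint and 185, 162 and 188 in cKO. The groups were far apart, 7.49-fold lower in cKO (difference -2.23 ± 0.11 (SE), adjusted p = 6.53e-19). In BMM Ly6Chi the gap was 1.82-fold (difference -0.62 ± 0.11 (SE), adjusted p = 2.80e-05), and in BMM Ly6Cneg the difference was 0.33 ± 0.13 (SE), adjusted p = 0.0573, in the other direction. Tlr13, X-linked as well, overlapped between the genotypes in BMM Ly6Chi, with 10411, 7337 and 8225 reads in WT and 10268, 8137 and 7734 in cKO. Its difference there was 0.01 ± 0.13 (SE), and in BMM Ly6Cint -0.28 ± 0.13 (SE), adjusted p = 0.0794. With voom on the recovered reads Tlr13 was called lower in BMM Ly6Cint (difference -0.30 ± 0.12 (SE), adjusted p = 0.0431). In BMM Ly6Cneg Tlr13 was higher in cKO, 7342, 6936 and 10345 reads against 4690.4 and 5378, without overlap and 1.63-fold (difference 0.69 ± 0.14 (SE), adjusted p = 0.000519).

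Of the surface receptors, the lipopeptide receptor subunits Tlr2 and Tlr1 were lower together in BMM Ly6Chi and Ly6Cint. Tlr1 held 5369, 5097 and 5669 reads in WT BMM Ly6Cint and 667, 547 and 526 in cKO, 9.28-fold lower without overlap (difference -2.90 ± 0.11 (SE), adjusted p = 2.42e-23). Tlr2 held 16596, 16545 and 17040.4 reads there in WT and 3105, 3274 and 3456 in cKO, 5.10-fold lower without overlap (difference -2.35 ± 0.10 (SE), adjusted p = 1.29e-20). In BMM Ly6Chi they were 2.44-fold and 2.80-fold lower (differences -1.13 ± 0.11 (SE), adjusted p = 1.78e-11, and -1.49 ± 0.10 (SE), adjusted p = 8.77e-15). The alternative Tlr2 partner, Tlr6, did not pass the test on the deposited scale in any BMM subset: its differences were 0.07 ± 0.11, -0.26 ± 0.11 and 0.29 ± 0.13 (SE) in Ly6Chi, Ly6Cint and Ly6Cneg. With voom on the recovered reads Tlr6 was called lower in BMM Ly6Cint (difference -0.34 ± 0.12 (SE), adjusted p = 0.0236). In BMM Ly6Cneg Tlr1 was 1.63-fold lower in cKO (difference -0.59 ± 0.12 (SE), adjusted p = 0.000236), whereas Tlr2 was 1.31-fold higher (difference 0.34 ± 0.12 (SE), adjusted p = 0.0301). The Tlr2 call in Ly6Cneg was lost when WT library 1 or 2, or cKO library 1 or 2, of that subset was left out (adjusted p = 0.102, 0.171, 0.057 and 0.118).

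Tlr4, the lipopolysaccharide receptor, was lower in cKO BMM of every subset. Its libraries held 3428, 1827 and 2391 reads in WT and 1302, 965 and 972 in cKO BMM Ly6Chi. They held 2984, 2509 and 2789.5 and 1065, 1236 and 1112 in Ly6Cint, and 3984 and 4654 and 1499, 1455 and 1916 in Ly6Cneg. No cKO library reached a WT library of its subset, and mean reads were 2.36-, 2.43- and 2.66-fold lower (differences -1.08 ± 0.13, -1.16 ± 0.13 and -1.33 ± 0.15 (SE), adjusted p = 3.35e-08, 9.00e-09 and 2.29e-08). Tlr5, the flagellin receptor and the least abundant member, went the other way in BMM Ly6Chi, with 63.9, 42.6 and 50.2 reads in WT and 169, 96.9 and 115 in cKO, 2.43-fold higher without overlap (difference 0.73 ± 0.16 (SE), adjusted p = 0.00033). Its libraries overlapped between genotypes in the other BMM subsets.

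**Figure D3:**
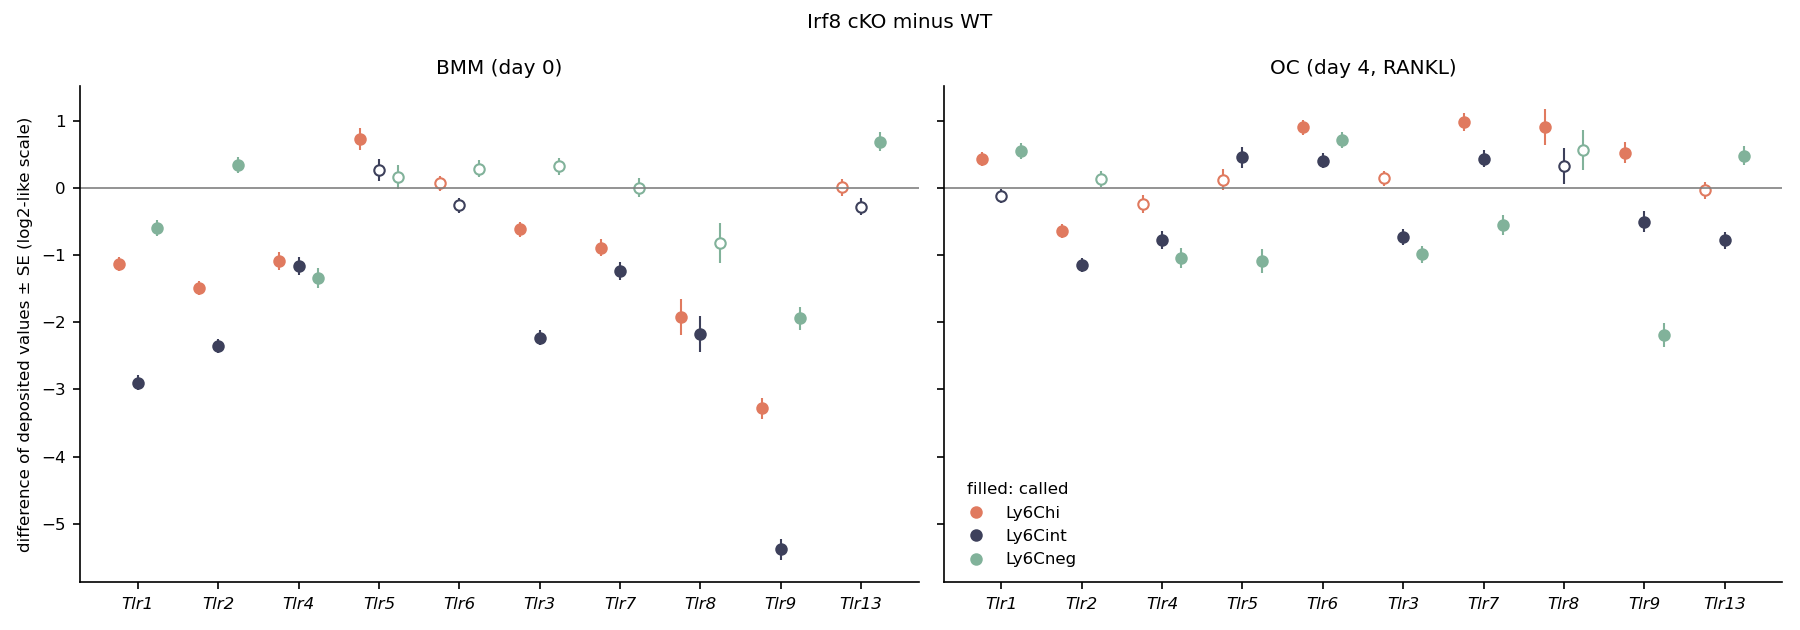
Difference cKO minus WT on the deposited log2-like scale (mean ± SE) for each Toll-like receptor gene, at day 0 (left) and after 4 days with RANKL (right); colours are the Ly6C subsets and filled points were called at an adjusted p under 0.05. At day 0 Tlr9 is at -3.28, -5.38 and -1.94 in Ly6Chi, Ly6Cint and Ly6Cneg; at day 4 it is at 0.53, -0.50 and -2.19.

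After 4 days with RANKL the genotype differences were of mixed direction. In OC Ly6Chi 5 members were called higher in cKO and 1 lower (7.86% of all genes were called, 4.25% higher and 3.61% lower). In OC Ly6Cint 3 were higher and 5 lower (14.1% of all genes, 8.18% higher and 5.94% lower). In OC Ly6Cneg 3 were higher and 5 lower (17.1% of all genes, 9.53% higher and 7.52% lower). Tlr6 was called higher in all 3 subsets and no other member was. Voom on the recovered reads did not call Tlr8 and Tlr9 in OC Ly6Chi (adjusted p = 0.0900 and 0.117). It also did not call Tlr5 and Tlr9 in OC Ly6Cint (adjusted p = 0.0531 and 0.0678). Of the 9 neutrophil markers 0, 9 and 7 were called higher in cKO OC Ly6Chi, Ly6Cint and Ly6Cneg and none lower. Their summed reads were 1708 to 2201 in WT and 27983 to 36089 in cKO OC Ly6Cint. In OC Ly6Cneg they were 4262 to 5789 and 26194 to 36231, and in OC Ly6Chi 1389 to 1861 and 1739.6 to 4319. Their part in these differences was not tested.

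Tlr6 held 254, 222 and 220.3 reads in WT and 511, 533 and 592 in cKO OC Ly6Chi. The groups did not overlap, and cKO was 2.35-fold higher (difference 0.90 ± 0.11 (SE), adjusted p = 1.43e-07). In OC Ly6Cint and Ly6Cneg it was 1.46- and 1.87-fold higher (differences 0.41 ± 0.11 (SE), adjusted p = 0.00796, and 0.72 ± 0.13 (SE), adjusted p = 2.7e-05). Tlr2 was lower in cKO OC Ly6Chi and Ly6Cint, with 2138, 2223 and 2320.3 reads in WT and 912, 905 and 913 in cKO of Ly6Cint, 2.45-fold lower (difference -1.14 ± 0.10 (SE), adjusted p = 6.56e-11); the libraries were tight and apart. In OC Ly6Cneg its difference was 0.14 ± 0.12 (SE), adjusted p = 0.561. Tlr1 was 1.47-fold higher in cKO OC Ly6Chi (difference 0.43 ± 0.11 (SE), adjusted p = 0.0047) and 1.52-fold higher in Ly6Cneg (difference 0.55 ± 0.12 (SE), adjusted p = 0.000488). The Ly6Chi call was lost without cKO library 2 (adjusted p = 0.0962), and the Ly6Cneg call without WT library 2 (adjusted p = 0.0735).

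Tlr4 was lower in cKO OC Ly6Cint and Ly6Cneg, 1.86- and 2.21-fold (differences -0.78 ± 0.13 (SE), adjusted p = 3.50e-05, and -1.04 ± 0.15 (SE), adjusted p = 1.32e-06). In Ly6Cneg its libraries held 2753 and 2815 reads in WT and 1337, 1207 and 1235 in cKO, well apart. Its difference in OC Ly6Chi was -0.24 ± 0.13 (SE), with overlap. Tlr5 was called higher in cKO OC Ly6Cint (difference 0.46 ± 0.16 (SE), adjusted p = 0.0492) and lower in Ly6Cneg, where WT held 151 and 134 reads and cKO 32.7, 45.8 and 36.1, 3.73-fold lower without overlap (difference -1.09 ± 0.18 (SE), adjusted p = 9.13e-06). Its Ly6Cint call sat at the threshold and was lost when any of 5 libraries was left out, cKO libraries 1 and 2 or WT libraries 1 to 3 (adjusted p from 0.0825 to 0.185).

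Among the endosomal receptors Tlr9 held 762 and 751 reads in WT OC Ly6Cneg and 92.4, 86.9 and 78.2 in cKO. The groups did not overlap, and cKO was 8.82-fold lower (difference -2.19 ± 0.18 (SE), adjusted p = 1.83e-12). In OC Ly6Chi and Ly6Cint all Tlr9 levels were low and the differences small: 70.2, 71.8 and 70.4 reads against 125, 147 and 121 in Ly6Chi, higher in cKO (difference 0.53 ± 0.16 (SE), adjusted p = 0.0303), and 236, 264 and 232 against 162, 156 and 118 in Ly6Cint, lower in cKO (difference -0.50 ± 0.16 (SE), adjusted p = 0.0255). The Ly6Chi call was lost when any single library of its 6 was left out (adjusted p from 0.0592 to 0.139), and the Ly6Cint call without cKO library 3 or without any of the WT libraries (adjusted p from 0.0517 to 0.15). Tlr3 was 2.11- and 2.45-fold lower in cKO OC Ly6Cint and Ly6Cneg (differences -0.73 ± 0.11 (SE), adjusted p = 4.58e-06, and -0.98 ± 0.13 (SE), adjusted p = 8.89e-08).

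Tlr7 was higher in cKO OC Ly6Chi, with 1583, 2086 and 2077 reads against 872, 752 and 1003 in WT, 2.19-fold without overlap (difference 0.98 ± 0.13 (SE), adjusted p = 1.65e-06). It was 1.41-fold higher in Ly6Cint and 1.5-fold lower in Ly6Cneg (differences 0.44 ± 0.13 (SE), adjusted p = 0.0189, and -0.55 ± 0.15 (SE), adjusted p = 0.00631). Leaving out cKO library 2, WT library 1 or WT library 3 ended the Ly6Cint call (adjusted p = 0.0929, 0.0536 and 0.0777), and leaving out either WT library ended the Ly6Cneg call (adjusted p = 0.0578 and 0.0539). Tlr8 was 2.22-fold higher in cKO OC Ly6Chi (difference 0.92 ± 0.27 (SE), adjusted p = 0.0359), a call that was lost when cKO library 2 or 3 or any WT library was left out (adjusted p from 0.0736 to 0.147), and its differences in the other subsets did not pass. Tlr13 was lower in cKO OC Ly6Cint, 2362, 2793 and 2415 reads against 4616, 4521 and 4097, 1.75-fold without overlap (difference -0.78 ± 0.13 (SE), adjusted p = 1.99e-05). In Ly6Cneg it was 1.39-fold higher (difference 0.48 ± 0.14 (SE), adjusted p = 0.0132); without WT library 1 or 2 that call was lost (adjusted p = 0.138 and 0.0526). The cKO OC Ly6Cneg libraries also held stromal RNA, with a mean of 8714 reads of Col1a1 against 138 in WT.

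The culture comparison asks how the receptors move from day 0 to RANKL-treated day 4. No group was kept for 4 days without RANKL, so RANKL and time in culture cannot be told apart. In WT cells all 10 members were called lower in OC than in BMM of Ly6Chi (34.1% of all genes were called, 20.4% lower and 13.7% higher) and of Ly6Cint (28.4%, 15.4% lower and 13.1% higher). In WT Ly6Cneg 3 rose and 1 fell (12.2% of all genes, 6.55% higher and 5.69% lower). In cKO Ly6Chi 6 fell and 1 rose (41.8%, 26.3% lower and 15.5% higher), in cKO Ly6Cint 5 fell and 1 rose (48.7%, 32.3% lower and 16.4% higher), and in cKO Ly6Cneg 5 rose and 2 fell (42.6%, 28% lower and 14.5% higher). The median difference of the members was -0.40 in cKO Ly6Chi and -0.39 in cKO Ly6Cint, where those of all genes were -0.27 and -0.34. The shift of the members in cKO Ly6Cint was thus near that of all genes. In cKO Ly6Cneg the medians were 0.27 and -0.36. The cKO medians of all genes depended on the normalization, as given in the last section. In WT Ly6Chi and Ly6Cint the medians were -1.60 and -1.92, against -0.28 and -0.06 for all genes. The neutrophil markers also fell with culture, 9 of 9 in both of these WT subsets, to sums of 1389 to 1861 reads in WT OC Ly6Chi and 1708 to 2201 in WT OC Ly6Cint. Of 5 classical monocyte markers 4 were called lower in each of those subsets. Their part in the fall of the receptors was not tested.

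In WT Ly6Cint, Tlr9 dropped from the 6126, 5433 and 6834 reads of BMM to 236, 264 and 232 in OC. It was thus 25.2-fold lower with no overlap (difference -4.00 ± 0.16 (SE), adjusted p = 6.86e-22). In WT Ly6Chi it went from 1627, 748 and 1067 to 70.2, 71.8 and 70.4 reads, 16.2-fold lower (difference -2.80 ± 0.16 (SE), adjusted p = 2.22e-17). In WT Ly6Cneg it did not pass the test, going from 959 and 987 to 762 and 751 reads (difference -0.30 ± 0.19 (SE), adjusted p = 0.452). In cKO cells Tlr9 rose with culture in the same 2 subsets in which it fell in WT: from 50.3, 42.2 and 26.2 to 125, 147 and 121 reads in Ly6Chi and from 55.2, 61.9 and 38.2 to 162, 156 and 118 in Ly6Cint, 3.32- and 2.81-fold higher (differences 1.01 ± 0.16 (SE), adjusted p = 2.05e-06, and 0.88 ± 0.16 (SE), adjusted p = 1.68e-05). In cKO Ly6Cneg it fell 1.93-fold (difference -0.55 ± 0.16 (SE), adjusted p = 0.00527), a call lost without cKO BMM library 3 (adjusted p = 0.0602). The cKO levels after culture lay between 78.2 and 162 reads, below the 232 to 264 of WT OC Ly6Cint and above the 70.2 to 71.8 of WT OC Ly6Chi.

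The other endosomal receptors fell in WT Ly6Chi and Ly6Cint as well. Tlr8 went from 6791, 2803 and 3729 to 478, 382 and 479.6 reads in WT Ly6Chi, 9.94-fold lower without overlap (difference -2.82 ± 0.27 (SE), adjusted p = 5.08e-09). Tlr7 fell 6.41-fold there and 4.90-fold in Ly6Cint (differences -2.46 ± 0.13 (SE), adjusted p = 6.79e-17, and -2.2 ± 0.13 (SE), adjusted p = 1.92e-15). Tlr3 fell 2.23- and 4.21-fold, and Tlr13 2.62- and 1.92-fold, in the same 2 subsets. In cKO cells Tlr8 and Tlr3 did not pass in Ly6Chi or Ly6Cint (Tlr8 0.01 ± 0.27 and 0.28 ± 0.27, Tlr3 -0.05 ± 0.11 and -0.16 ± 0.11 (SE)). Tlr7 was called lower in both, from 2997 to 1915 mean reads in cKO Ly6Chi and from 2726 to 1883 in cKO Ly6Cint (differences -0.59 and -0.49). Tlr13 fell in cKO Ly6Chi and Ly6Cint too, 2.7- and 2.80-fold (differences -1.41 ± 0.13 (SE), adjusted p = 5.10e-11, and -1.44 ± 0.13 (SE), adjusted p = 2.24e-11). In the Ly6Cneg cultures the direction turned: Tlr3 rose 3.98-fold in WT (difference 1.45 ± 0.14 (SE), adjusted p = 1.31e-10), and Tlr13 rose 1.65-fold in WT and 1.40-fold in cKO (differences 0.72 ± 0.15 (SE), adjusted p = 0.000863, and 0.52 ± 0.13 (SE), adjusted p = 0.00146).

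Of the surface receptors, Tlr2 fell with culture in Ly6Chi and Ly6Cint and rose in Ly6Cneg, in both genotypes. Tlr2 went from 16596, 16545 and 17040.4 to 2138, 2223 and 2320.3 reads in WT Ly6Cint, 7.51-fold lower (difference -2.87 ± 0.10 (SE), adjusted p = 1.59e-23). In WT Ly6Cneg it went from 1258 and 1221 to 4384 and 4177 reads, 3.45-fold higher (difference 1.66 ± 0.13 (SE), adjusted p = 5.26e-13); no OC library overlapped a BMM library in either subset. In cKO the fall was 2.92- and 3.60-fold in Ly6Chi and Ly6Cint and the rise 2.91-fold in Ly6Cneg (adjusted p = 1.26e-13, 1.87e-16 and 2.22e-14). Tlr1 fell 4.43- and 6.99-fold in WT Ly6Chi and Ly6Cint (adjusted p = 1.42e-17 and 5.55e-22) and rose 2.98-fold in cKO Ly6Cneg (adjusted p = 1.24e-13). Its call in cKO Ly6Chi (difference -0.26 ± 0.11 (SE), adjusted p = 0.042) had overlapping libraries and was lost without any of cKO BMM libraries 1 to 3 or cKO OC libraries 1 and 3 (adjusted p from 0.0568 to 0.261). Tlr6 fell 3.50- and 3.51-fold in WT and 1.59- and 1.99-fold in cKO Ly6Chi and Ly6Cint, and rose 1.40-fold in cKO Ly6Cneg. Tlr4 fell 2.21-, 1.65- and 1.55-fold in the WT subsets and was not called in any cKO subset. Tlr5 fell 1.87-fold in WT Ly6Chi, a call lost without WT BMM library 1 or WT OC library 1 or 2 (adjusted p = 0.0823, 0.0503 and 0.103). Tlr5 was also called lower in WT Ly6Cint, where mean reads went from 154 to 50.5. In cKO it was called lower in Ly6Chi (127 to 32.8 mean reads), Ly6Cint (209 to 90.0) and Ly6Cneg (98.1 to 38.2). In WT Ly6Cneg, with 75.9 and 142 mean reads, Tlr5 was not called on the deposited scale. The WT Ly6Cneg call of Tlr4 was lost without WT BMM library 2 or either WT OC library (adjusted p = 0.148, 0.0681 and 0.052).

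**Figure D4:**
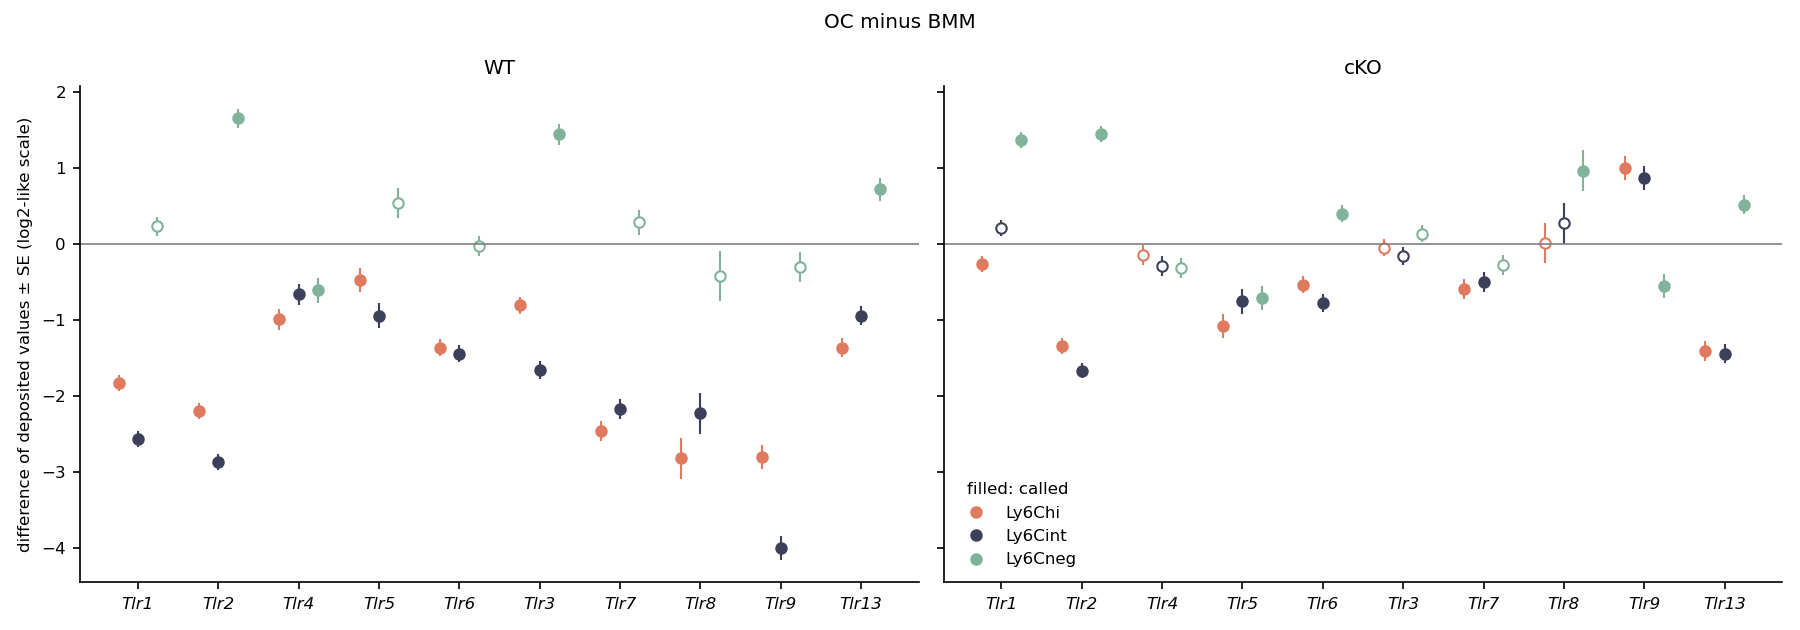
Difference OC minus BMM on the deposited log2-like scale (mean ± SE) for each Toll-like receptor gene, in WT (left) and cKO (right); colours are the Ly6C subsets and filled points were called at an adjusted p under 0.05. In WT all 10 genes lie below 0 in Ly6Chi and Ly6Cint; Tlr9 is at -2.80 and -4.00 there and at 1.01 and 0.88 in cKO.

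Whether the change with culture differed between genotypes was tested as an interaction, cKO change minus WT change. In Ly6Chi 9 members passed, all but Tlr13 (23.8% of all genes were called), and in Ly6Cint 8 passed, all but Tlr4 and Tlr5 (26% of all genes). In Ly6Cneg 4 passed (17.3% of all genes). With voom on the recovered reads Tlr5 in Ly6Chi (adjusted p = 0.150) and Tlr13 in Ly6Cint (adjusted p = 0.0618) did not pass. Tlr7 in Ly6Cneg did pass in that fit (adjusted p = 0.0477). Tlr9 had the largest interaction in Ly6Cint (4.88 ± 0.22 (SE), adjusted p = 2.65e-19) and in Ly6Chi (3.81 ± 0.22 (SE), adjusted p = 2.57e-16). Tlr8 followed in Ly6Chi (2.84 ± 0.38 (SE), adjusted p = 2.46e-06) and Tlr1 in Ly6Cint (2.77 ± 0.15 (SE), adjusted p = 7.37e-18). In Ly6Cneg Tlr8 and Tlr1 were positive and Tlr3 and Tlr5 negative (-1.31 ± 0.18 (SE), adjusted p = 5.48e-07, and -1.26 ± 0.25 (SE), adjusted p = 0.0003). A positive value here means that the fall from BMM to OC was smaller in cKO, or that the gene rose there.

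Within WT BMM, Ly6Cint cells were the richest in most receptors. Against Ly6Chi, 6 members were higher and none lower (15.6% of all genes were called, 8.52% higher and 7.09% lower): Tlr9 5.34-fold, Tlr3 3.17-fold, Tlr5 2.95-fold, Tlr1 2.30-fold, Tlr2 2.28-fold and Tlr6 1.41-fold. The Tlr6 call was lost without WT BMM Ly6Chi library 2 (adjusted p = 0.0503). Ly6Cneg had 8 members lower than Ly6Cint (23% of all genes, 10.8% lower) and 6 lower than Ly6Chi (20.6%, 10% lower), led by Tlr2 with 13- and 5.93-fold. Tlr4 alone was higher in Ly6Cneg, 1.69-fold over Ly6Chi (difference 0.77 ± 0.15 (SE), adjusted p = 0.000123) and 1.56-fold over Ly6Cint (difference 0.62 ± 0.15 (SE), adjusted p = 0.0016), the last call lost without WT BMM Ly6Cneg library 2 (adjusted p = 0.0591). In cKO BMM these contrasts held fewer members: 1 higher and 1 lower in Ly6Cint against Ly6Chi (6.83% of all genes), 3 and 3 in Ly6Cneg against Ly6Chi (27%), and 2 and 3 in Ly6Cneg against Ly6Cint (27.5%). Fitted with only the compared libraries, the first of these held 0 members and 0 genes called (2 members and 3737 genes at an unadjusted p under 0.05 in limma) and the second 1 member and 2121 genes against 10513. The Ly6Cint call of Tlr2 over Ly6Chi, the Ly6Cneg calls of Tlr8 and Tlr1 against Ly6Chi and that of Tlr4 against Ly6Cint were each lost when single libraries were left out (adjusted p from 0.0805 to 0.405 for Tlr2 and 0.11 to 0.261 for Tlr8, and 0.0906 for Tlr1 and 0.0912 for Tlr4). Tlr9 there was highest in Ly6Cneg, 4.2-fold over Ly6Chi (difference 1.19 ± 0.16 (SE), adjusted p = 4.19e-07).

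Within WT OC the receptors were highest in the cultures of Ly6Cneg origin. Against OC of Ly6Chi origin, all 10 members were higher in OC of Ly6Cneg origin (19% of all genes were called, 10.9% higher) and 6 in those of Ly6Cint origin (2.9%, 1.59% higher), and 9 were higher in Ly6Cneg than in Ly6Cint (13.6%, 8.11% higher). Tlr9 rose from 70.2, 71.8 and 70.4 reads in Ly6Chi to 236, 264 and 232 in Ly6Cint and 762 and 751 in Ly6Cneg. No library of one subset reached those of the next, and Ly6Cneg was 10.7-fold above Ly6Chi (difference 2.35 ± 0.18 (SE), adjusted p = 4.32e-13). The Ly6Cint calls of Tlr1, Tlr4 and Tlr7 over Ly6Chi were lost in 3, 6 and 4 of the fits that leave out a library (adjusted p from 0.0509 to 0.0662, 0.0627 to 0.265 and 0.0653 to 0.153), and that of Tlr8 in Ly6Cneg over Ly6Cint without WT OC Ly6Cint library 3 or either Ly6Cneg library (from 0.0619 to 0.122). Tlr8 and Tlr5 in Ly6Cneg were 5.24- and 5.10-fold above Ly6Chi (adjusted p = 1.54e-05 and 2.34e-07). The osteoclast markers had the opposite order, with mean Ctsk reads of 393138, 230939 and 25749 in WT OC of Ly6Chi, Ly6Cint and Ly6Cneg origin. In cKO OC, Ly6Cneg against Ly6Chi gave 5 members higher and none lower (23.5% of all genes), led by Tlr2 with 5.28-fold (difference 2.20 ± 0.10 (SE), adjusted p = 2.88e-19), Tlr8 with 3.57-fold and Tlr13 with 3.56-fold. Ly6Cneg against Ly6Cint gave 7 higher and 2 lower (24.7%), of which those of Tlr4 and Tlr9 were lost without single libraries (adjusted p from 0.0758 to 0.0795 and 0.0618 to 0.114), and Ly6Cint against Ly6Chi gave 1 higher, Tlr5 (5.27%). Mean Ctsk reads were 302678, 350149 and 177424 in the same order. Subset contrasts within a stage and genotype share libraries with one another.

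At day 0 the genes that serve the receptors moved in part with them. OC counts are given below for the kinase, trafficking and inhibitor lists, the last in Ly6Cneg only. In BMM, cKO against WT, the adaptors (6 genes) had 4, 4 and 3 members lower in Ly6Chi, Ly6Cint and Ly6Cneg. Myd88, the adaptor of all members but Tlr3, averaged 6509 reads in WT and 3142 in cKO Ly6Cint (difference -1.03 ± 0.07 (SE), adjusted p = 1.62e-14), and Ticam1, the adaptor of Tlr3 and Tlr4, 1468 and 748 (difference -0.83 ± 0.09 (SE), adjusted p = 6.99e-10). The 18 kinases and ubiquitin ligases had 12, 15 and 9 lower and 1, 1 and 0 higher. Ikbke, a kinase that activates interferon regulatory factors, averaged 13232 and 3581 reads in WT and cKO BMM Ly6Cint (difference -1.89 ± 0.09 (SE), adjusted p = 7.31e-20), and Ikbkb, a kinase of the NF-kappaB pathway, 6411 and 2912 (difference -1.11 ± 0.08 (SE), adjusted p = 3.09e-15). The ubiquitin-conjugating enzyme Ube2n was the exception and higher in cKO, 3639 against 1192 reads (difference 1.29 ± 0.35 (SE), adjusted p = 0.0053). Irak4, the kinase that Myd88 recruits, was lower in BMM Ly6Cneg (difference -0.81 ± 0.09 (SE), adjusted p = 1.09e-08). In OC the same list had 0, 1 and 0 lower and 1, 4 and 5 higher. Of all genes 15.3%, 14.7% and 9.42% were lower and 14.4%, 25% and 13.6% higher in the 3 BMM comparisons, and 3.61%, 5.94% and 7.52% lower and 4.25%, 8.18% and 9.53% higher in OC.

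Among 20 genes for trafficking, folding and ligand processing, 11, 13 and 8 were lower in cKO BMM and 3, 4 and 4 higher. Unc93b1, which carries the endosomal receptors out of the endoplasmic reticulum, averaged 59266 reads in WT BMM Ly6Cint and 15230.4 in cKO (difference -1.96 ± 0.06 (SE), adjusted p = 1.11e-24), and was lower in Ly6Chi as well (difference -1.83 ± 0.06 (SE), adjusted p = 7.69e-24). Ctss and Lgmn, lysosomal proteases that cut endosomal receptors, were lower in cKO in all 6 genotype comparisons; Ctss averaged 61125 reads in WT OC Ly6Cint and 13396 in cKO (difference -2.19 ± 0.13 (SE), adjusted p = 5.25e-13). Slc29a3, a lysosomal nucleoside transporter, averaged 5593 and 731 reads in WT and cKO BMM Ly6Cint (difference -2.68 ± 0.15 (SE), adjusted p = 4.19e-15). In OC this list had 5, 11 and 7 lower and 2, 3 and 4 higher. The shares of all genes were 15.3%, 14.7% and 9.42% lower and 14.4%, 25% and 13.6% higher in BMM, so the list's higher counts stood near that background, and 3.61%, 5.94% and 7.52% lower and 4.25%, 8.18% and 9.53% higher in OC.

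Of the 6 co-receptor genes Ly86 stood out. Ly86 encodes MD-1, the partner of the Toll-like receptor homologue Cd180, and was lower in cKO in all 6 genotype comparisons, with 9535 to 12329 reads in WT and 45.0 to 147 in cKO BMM Ly6Cint (difference -5.82 ± 0.24 (SE), adjusted p = 1.32e-16). In OC Ly6Cint it had 368 to 399.8 and 6.90 to 14.1 reads. Cd180 itself was at 7901 and 2548 mean reads in WT and cKO BMM Ly6Cint (difference -1.61 ± 0.14 (SE), adjusted p = 2.22e-10) and was not called in BMM Ly6Chi. Cd14, which delivers lipopolysaccharide, and the scavenger receptor Cd36 went different ways in BMM Ly6Cint, Cd14 lower (difference -1.56 ± 0.10 (SE), adjusted p = 2.39e-16) and Cd36 higher (difference 1.84 ± 0.09 (SE), adjusted p = 4.53e-19). Ly96, the partner of Tlr4, was lower in BMM Ly6Chi (difference -0.26 ± 0.09 (SE), adjusted p = 0.0302), higher in BMM Ly6Cneg (difference 0.62 ± 0.11 (SE), adjusted p = 2.57e-05) and not called in the other 4 comparisons; Tlr4 was lower in 5 of the 6. Ly96 in Ly6Cneg was named after its values were seen.

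Of 8 transcription factors, 6, 5 and 4 were lower and 1, 1 and 0 higher in cKO BMM (15.3%, 14.7% and 9.42% of all genes lower, 14.4%, 25% and 13.6% higher). Irf5, which acts downstream of Myd88, was lower in all 6 genotype comparisons, with means of 14459 and 3496 reads in WT and cKO BMM Ly6Cint (difference -2.05 ± 0.08 (SE), adjusted p = 5.38e-23). Irf7, which drives interferon genes behind Tlr7 and Tlr9, averaged 37938 and 618 (difference -5.65 ± 0.20 (SE), adjusted p = 1.07e-17). Of 12 inhibitors, 7, 9 and 4 were lower and 2, 1 and 0 higher, among them Trim30a with 15979.9 and 1226 reads in BMM Ly6Cint and the ubiquitin-editing Tnfaip3 with 3622 and 778. In OC Ly6Cneg the inhibitor list had 5 higher and 4 lower (9.53% and 7.52% of all genes), with Dusp1 at 1316 reads in WT and 5291 in cKO (difference 1.89 ± 0.12 (SE), adjusted p = 6.99e-16).

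Tlr11 and Tlr12, which recognise the parasite protein profilin in mice, were low throughout and largely seen in WT BMM Ly6Cint and Ly6Cneg. Tlr11 averaged 151 and 104 reads there and at most 5.58 in the other groups save WT BMM Ly6Chi with 7.5. Tlr12 averaged 91.1, 91.6 and 12.9 in WT BMM Ly6Cint, Ly6Cneg and Ly6Chi, and at most 7.92 elsewhere. Both were called lower in cKO BMM of all 3 subsets (15.3%, 14.7% and 9.42% of all genes lower in Ly6Chi, Ly6Cint and Ly6Cneg). In BMM Ly6Chi Tlr11 held only 8, 2 and 13 unscaled reads in WT and 0, 2 and 0 in cKO. That call thus rests on few reads, with a WT and a cKO library at the same count.

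**Figure D5:**
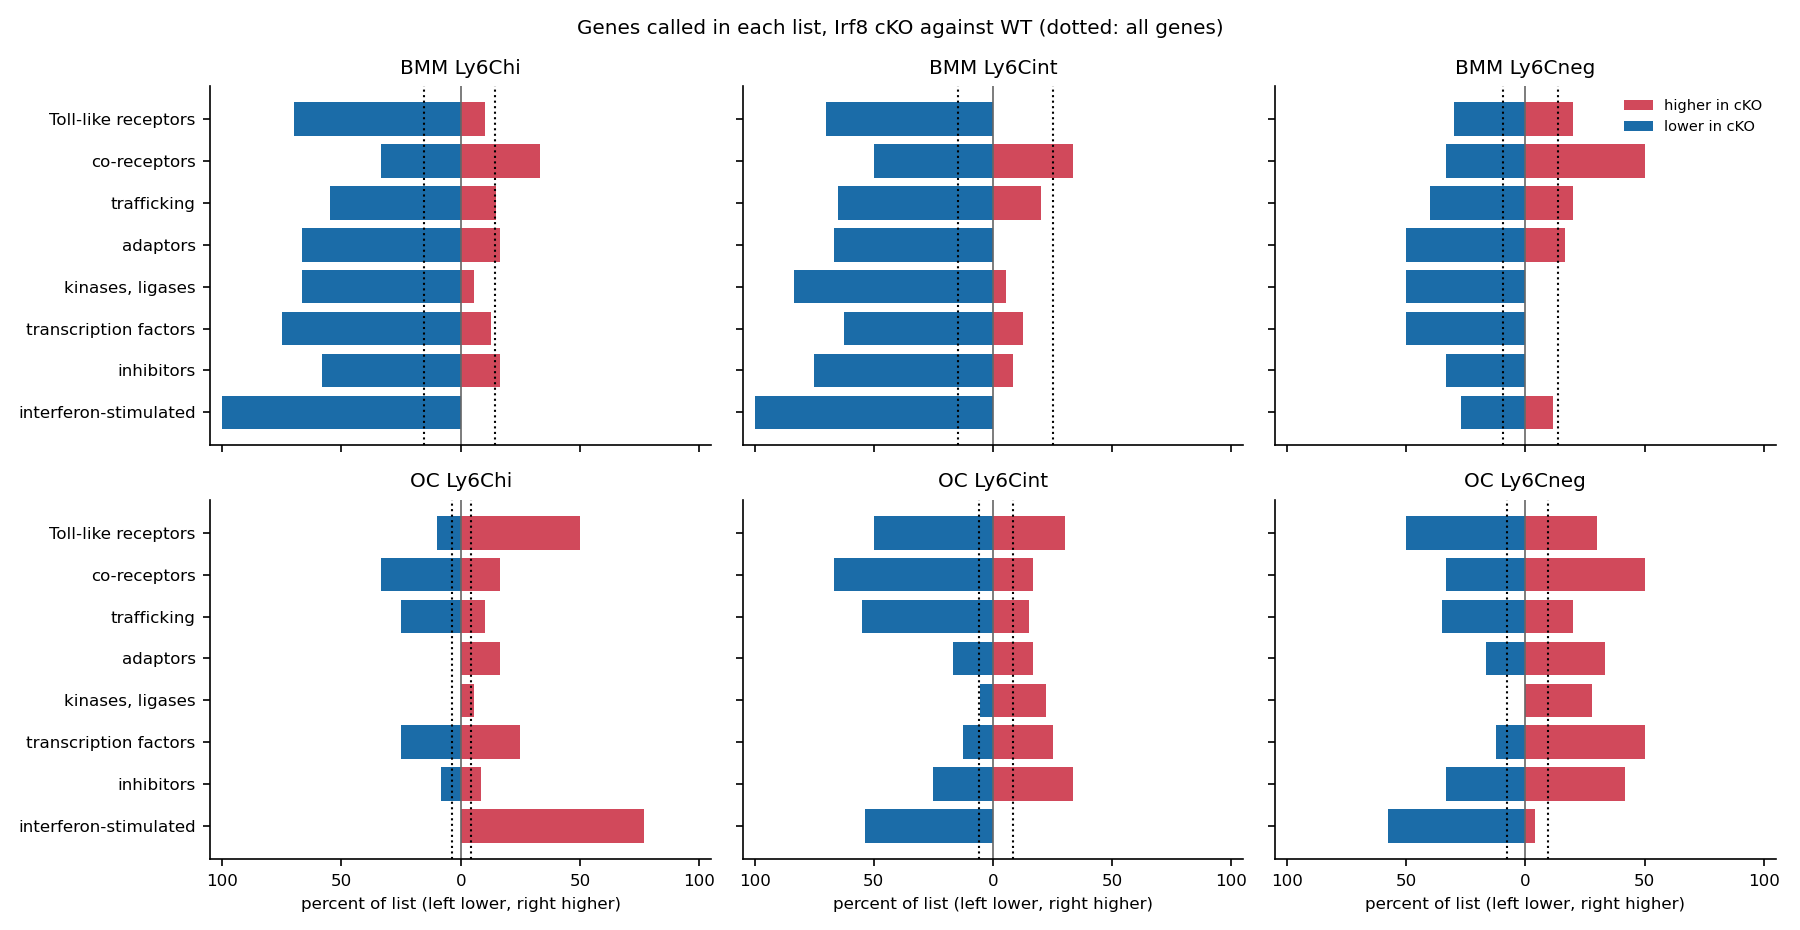
Percent of each list's genes called higher (right, red) or lower (left, blue) in cKO than in WT, by stage and Ly6C subset; dotted lines give the percent of all genes called in that direction. In BMM Ly6Chi and Ly6Cint the 26 interferon-stimulated genes are all lower and 7 of the 10 Toll-like receptor genes are lower; in OC Ly6Chi 20 of the 26 and 5 of the 10 are higher.

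Genes of the type I interferon response, which several of these receptors can induce, were counted in the same comparisons. All 26 interferon-stimulated genes tested were lower in cKO BMM Ly6Chi and Ly6Cint; in BMM Ly6Cneg 7 were lower and 3 higher. Of all genes 15.3%, 14.7% and 9.42% were lower there, and 13.6% higher in BMM Ly6Cneg, so the 3 higher genes stood near the background. In OC Ly6Chi 20 were higher and none lower, in OC Ly6Cint 14 lower and none higher, and in OC Ly6Cneg 15 lower and 1 higher (4.25%, 8.18% and 9.53% of all genes higher and 3.61%, 5.94% and 7.52% lower). With culture all 26 fell in WT Ly6Chi and Ly6Cint, and 21 rose in WT Ly6Cneg (20.4% and 15.4% of all genes lower, and 6.55% higher). As an example, the antiviral gene Rsad2 averaged 23429 reads in WT BMM Ly6Cint, 1794 in WT BMM Ly6Chi and 161 in WT BMM Ly6Cneg, against 130.2 in cKO BMM Ly6Cint. Over the 12 group means the correlation with the median of the 26 genes was 0.91 for Tlr1, 0.89 for Tlr3, 0.87 for Tlr2, 0.81 for Tlr9, 0.79 for Tlr7 and 0.71 for Tlr8. It was 0.62 for Tlr6, 0.43 for Tlr13, 0.40 for Tlr4 and 0.30 for Tlr5. These are Pearson r over 12 groups that share libraries' depth and cell makeup, given as a description. The median of the 26 genes was 13.43 in WT BMM Ly6Cint, 10.85 in WT BMM Ly6Chi and 8.40 to 9.69 elsewhere. A single group, WT BMM Ly6Cint, therefore weighs heavily in each r.

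The genes whose 12 group means were most like those of each member were sought among 14129 genes by Pearson r, again as a description over shared groups. For Tlr9 they were Sectm1a (r = 0.98), Nlrc5 (0.98) and Unk (0.98); Nlrc5 drives MHC class I genes. For Tlr4 the nearest was Ciita (0.98), the master activator of MHC class II genes, followed by C1qtnf6 (0.97) and Kdm2b (0.96). For Tlr8 they were Mycbp2 (0.97), Cd86 (0.96), a costimulatory ligand, and Per1 (0.94). Tlr3 was closest to the interferon-inducible Gbp6 (0.96) and Ifi44 (0.96) and to Fbxw17 (0.95), and Tlr1 to Ifi203 (0.95), Shisa5 (0.95) and Mapk9 (0.95). The list for Tlr7 was Tbc1d14 (0.94), Ticam2 (0.94), an adaptor of Tlr4, and Pigv (0.93), and that for Tlr2 was Fyb (0.94), Ptger4 (0.94) and Neurl3 (0.94). Tlr6 was closest to Ppp1r3b (0.95), Ms4a6b (0.94) and Ccrl2 (0.94), and Tlr13 to Clec4d (0.92), Fhad1 (0.92) and Fth1 (0.92), the ferritin heavy chain. Tlr5 had the least like neighbours, Jaml (0.91), Sh2d3c (0.87) and Slc37a1 (0.87).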

How the data were processed

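RNA sequencing of 34 libraries of mouse bone marrow monocyte cultures in 12 groups was used; 2 of the 36 labelled samples are not analysed here. The deposited values are normalized expression values on a log2-like scale made by the authors; per the submitters' processing notes HISAT2, CASAVA 1.8.4, deepTools, DESeq2, bcl2fastq 2.17.1 and build mm10 were used in steps the notes do not assign. How reads were counted, with or without strand, and transformed is not given in the sources used here. Because the values were already logged, no pseudocount was added, and the test planned for linear values was run on them as deposited.

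Reads per gene were recovered up to a value of 13.5, where the mean distance from a whole read was at most 0.0293 (0.25 for random values). Reads of single genes above that limit were extrapolated at a full unit per doubling. Library totals are estimates too, since up to 48.8% of a library's reads lie above that limit. A gene was kept if 3 or more libraries exceeded 4.78 (the 5th percentile once values at the minimum are set aside), which left 38873 genes. One limma 3.58.1 model (R 4.3.3) with 12 group means, a trended and robust prior and 22 residual degrees of freedom gave 29 comparisons, each with Benjamini-Hochberg adjustment over all kept genes, and adjusted p under 0.05 was called. Changes between 3 and 3 libraries could not go below p = 0.1 in an exact permutation test, or 0.2 with 3 and 2, so none was used. The fit was tested on simulated data. Alternatives were no filter, a filter at 5.29 (32236 genes), median-of-ratios and quantile normalization, no trended or robust prior, library weights, only the compared libraries, each library left out and, chosen after seeing the data, voom on the recovered reads.

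The members and the pathway and marker lists were chosen with earlier results of these data known. All members are named; of each list up to 4 called genes with the largest change in a comparison are named, and for each member the 3 protein-coding genes with the most similar group means. Tasl and Klk1 of the lists were not matched by name. Promoters came from RefSeq.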

Additional observations from a re-analysis of the deposited data

Results flagged for a closer look

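The difference between the genotypes in the change from BMM to OC (cKO change minus WT change, on the deposited scale) passed limma's test of that difference for the following members. In Ly6Chi it was 1.57 for Tlr1, 0.85 for Tlr2, 0.76 for Tlr3, 0.85 for Tlr4, -0.60 for Tlr5, 0.83 for Tlr6, 1.87 for Tlr7, 2.84 for Tlr8 and 3.81 for Tlr9. In Ly6Cint it was 2.77 for Tlr1, 1.21 for Tlr2, 1.5 for Tlr3, 0.67 for Tlr6, 1.68 for Tlr7, 2.5 for Tlr8, 4.88 for Tlr9 and -0.50 for Tlr13. In Ly6Cneg it was 1.14 for Tlr1, -1.31 for Tlr3, -1.26 for Tlr5 and 1.38 for Tlr8. Of these, the values of Tlr5 in Ly6Chi, Tlr13 in Ly6Cint and Tlr8 in Ly6Cneg missed the threshold when single libraries were left out, with adjusted p from 0.0522 to 0.156, 0.0529 to 0.115 and 0.067 to 0.117 in 9, 8 and 5 such fits.

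The cKO minus WT difference also varied between the Ly6C subsets in BMM for 8 of 10 members (limma's F test, 20.8% of all genes called). F was 123 for Tlr1, 150.1 for Tlr2, 119 for Tlr3, 5.42 for Tlr6, 20.5 for Tlr7, 6.14 for Tlr8, 109.7 for Tlr9 and 13.4 for Tlr13. The F values of Tlr6 and Tlr8 missed the threshold in 10 and 7 of the fits without a single library, with adjusted p from 0.053 to 0.167 and 0.0603 to 0.187.

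The cKO minus WT difference also varied between the Ly6C subsets in OC for 8 of 10 members (limma's F test, 13.4% of all genes called). F was 11 for Tlr1, 33.3 for Tlr2, 25.5 for Tlr3, 8.73 for Tlr4, 22.4 for Tlr5, 30.4 for Tlr7, 66.3 for Tlr9 and 22.8 for Tlr13. Values called in opposite directions in different subsets were those of Tlr2 in BMM (-2.35 in Ly6Cint, 0.34 in Ly6Cneg) and, in OC, of Tlr5 (0.46 in Ly6Cint, -1.09 in Ly6Cneg), Tlr7 (0.98 in Ly6Chi, -0.55 in Ly6Cneg), Tlr9 (0.53 in Ly6Chi, -2.19 in Ly6Cneg) and Tlr13 (-0.78 in Ly6Cint, 0.48 in Ly6Cneg). In each pair the smaller call was lost when single libraries were left out, in 4, 5, 2, 6 and 2 such fits, with limma's adjusted p from 0.057 to 0.171, 0.0825 to 0.185, 0.0539 to 0.0578, 0.0592 to 0.139 and 0.0526 to 0.138 in that order. The neutrophil, stromal and sex-linked values given above moved with these groups, and their part was not tested.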

How the results depend on the processing

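The pseudocount alternative was not run, as the values were already logged. No paired analysis was possible because the numbers in the sample titles are serial and pair no libraries across groups. Over 29 comparisons of 10 members the main call and direction were kept in 290 of 290 values without a filter, 285 with the stricter filter, 280 with median-of-ratios rescaling, 263 with quantile normalization, 275 without the trended or robust prior, 261 with library weights, 259 with only the compared libraries, 273 with voom and 1865 of 2040 with a library left out. Voom lost 10 calls and gained 7. Lost in cKO minus WT were Tlr8 and Tlr9 in OC Ly6Chi and Tlr5 and Tlr9 in OC Ly6Cint. Lost as genotype by stage interactions were Tlr5 in Ly6Chi and Tlr13 in Ly6Cint. Also lost were Tlr1 in OC minus BMM, cKO Ly6Chi, and Tlr2 in Ly6Cint minus Ly6Chi, cKO BMM. Tlr8 in Ly6Cneg minus Ly6Chi, cKO BMM, and Tlr9 in Ly6Cneg minus Ly6Cint, cKO OC, were lost too. With only the compared libraries the genes called were 7446 against 11563 for cKO minus WT, BMM Ly6Chi, 4982 against 8966 for cKO minus WT, BMM Ly6Cneg, 5003 against 8090 for genotype by subset, BMM, 8185 against 5200 for genotype by subset, OC, 0 against 2654 for Ly6Cint minus Ly6Chi, cKO BMM, 1177 against 2047 for Ly6Cint minus Ly6Chi, cKO OC, 1922 against 1128 for Ly6Cint minus Ly6Chi, WT OC, 2121 against 10513 for Ly6Cneg minus Ly6Chi, cKO BMM, 5213 against 10693 for Ly6Cneg minus Ly6Cint, cKO BMM, 8995 against 5268 for Ly6Cneg minus Ly6Cint, WT OC, 10431 against 16241 for OC minus BMM, cKO Ly6Chi. With only the compared libraries the members called were 0 against 2 for Ly6Cint minus Ly6Chi, cKO BMM, 0 against 1 for Ly6Cint minus Ly6Chi, cKO OC, 1 against 6 for Ly6Cneg minus Ly6Chi, cKO BMM. Where limma called 0, an unadjusted p under 0.05 was reached by 3737 genes and 2 members in Ly6Cint minus Ly6Chi of cKO BMM and by 3 members in that of cKO OC. With library weights the genes called were 6535 against 3056 for cKO minus WT, OC Ly6Chi, 9034 against 5490 for cKO minus WT, OC Ly6Cint, 8834 against 5200 for genotype by subset, OC, 1126 against 2654 for Ly6Cint minus Ly6Chi, cKO BMM, 4523 against 2047 for Ly6Cint minus Ly6Chi, cKO OC, 10355 against 6071 for Ly6Cint minus Ly6Chi, WT BMM, 3820 against 1128 for Ly6Cint minus Ly6Chi, WT OC, 4736 against 10513 for Ly6Cneg minus Ly6Chi, cKO BMM, 12218 against 7396 for Ly6Cneg minus Ly6Chi, WT OC, 11299 against 5268 for Ly6Cneg minus Ly6Cint, WT OC, 7570 against 4758 for OC minus BMM, WT Ly6Cneg. With library weights the members called were 3 against 1 for Ly6Cint minus Ly6Chi, cKO OC, 10 against 6 for Ly6Cint minus Ly6Chi, WT OC. Without the trended or robust prior the members called were 5 against 8 for cKO minus WT, OC Ly6Cint, 1 against 2 for Ly6Cint minus Ly6Chi, cKO BMM, 3 against 6 for Ly6Cint minus Ly6Chi, WT OC. With quantile normalization the members called were 2 against 1 for Ly6Cint minus Ly6Chi, cKO OC, 9 against 5 for Ly6Cneg minus Ly6Cint, cKO BMM. With the stricter filter the members called were 2 against 1 for Ly6Cint minus Ly6Chi, cKO OC. With voom the members called were 1 against 2 for Ly6Cint minus Ly6Chi, cKO BMM. Leaving out single libraries gave 4573 to 11171 genes called against 8966 for cKO minus WT, BMM Ly6Cneg, 745 to 913 genes called against 1128 for Ly6Cint minus Ly6Chi, WT OC, 4688 to 6685 genes called against 7396 for Ly6Cneg minus Ly6Chi, WT OC, 2662 to 4131 genes called against 5268 for Ly6Cneg minus Ly6Cint, WT OC, 3 to 5 members called against 6 for cKO minus WT, OC Ly6Chi, 5 to 7 members called against 8 for cKO minus WT, OC Ly6Cint, 5 to 8 members called against 8 for cKO minus WT, OC Ly6Cneg, 1 to 3 members called against 2 for Ly6Cint minus Ly6Chi, cKO BMM, 1 to 2 members called against 1 for Ly6Cint minus Ly6Chi, cKO OC, 3 to 5 members called against 6 for Ly6Cint minus Ly6Chi, WT OC. The low end for BMM Ly6Cneg came without WT library 2, and WT library 1 gave 5844. Sign changes touched only values that were not called in either fit: -0.0072 for Tlr13, cKO minus WT, BMM Ly6Chi (quantile normalization), 0.032 for Tlr13, Ly6Cint minus Ly6Chi, WT BMM (library weights), 0.097 for Tlr13, Ly6Cneg minus Ly6Chi, cKO BMM (quantile normalization), -0.063 for Tlr3, Ly6Cneg minus Ly6Chi, cKO BMM (library weights), -0.040 for Tlr5, Ly6Cneg minus Ly6Chi, cKO OC (quantile normalization), -0.041 for Tlr7, cKO minus WT, BMM Ly6Cneg (library weights), 0.064 for Tlr7, Ly6Cneg minus Ly6Cint, cKO BMM (quantile normalization), -0.014 for Tlr8, OC minus BMM, cKO Ly6Chi (median-of-ratios rescaling), -0.044 for Tlr8, OC minus BMM, cKO Ly6Chi (quantile normalization). Without single libraries the sign also turned within -0.11 to 0.16 for Tlr13, cKO minus WT, BMM Ly6Chi, -0.076 to 0.0042 for Tlr13, cKO minus WT, OC Ly6Chi, -0.19 to 0.080 for Tlr13, genotype by stage, Ly6Chi, -0.13 to 0.13 for Tlr13, Ly6Cint minus Ly6Chi, WT BMM, -0.28 to 0.027 for Tlr13, Ly6Cneg minus Ly6Chi, cKO BMM, -0.033 to 0.049 for Tlr2, Ly6Cint minus Ly6Chi, cKO OC, -0.075 to 0.15 for Tlr3, Ly6Cneg minus Ly6Chi, cKO BMM, -0.12 to 0.035 for Tlr3, OC minus BMM, cKO Ly6Chi, -0.16 to 0.0082 for Tlr4, Ly6Cint minus Ly6Chi, cKO OC, -0.055 to 0.37 for Tlr4, Ly6Cint minus Ly6Chi, WT BMM, -0.043 to 0.33 for Tlr5, cKO minus WT, BMM Ly6Cneg, -0.029 to 0.16 for Tlr6, cKO minus WT, BMM Ly6Chi, -0.086 to 0.21 for Tlr6, Ly6Cint minus Ly6Chi, cKO BMM, -0.058 to 0.0081 for Tlr6, OC minus BMM, WT Ly6Cneg, -0.11 to 0.12 for Tlr7, cKO minus WT, BMM Ly6Cneg, -0.23 to 0.072 for Tlr7, Ly6Cint minus Ly6Chi, cKO BMM, -0.13 to 0.046 for Tlr7, Ly6Cint minus Ly6Chi, cKO OC, -0.29 to 0.014 for Tlr7, Ly6Cneg minus Ly6Chi, cKO BMM, -0.14 to 0.33 for Tlr8, Ly6Cint minus Ly6Chi, cKO BMM, -0.20 to 0.24 for Tlr8, OC minus BMM, cKO Ly6Chi, -0.38 to 0.10 for Tlr9, Ly6Cneg minus Ly6Chi, WT BMM. Quantile normalization moved the median difference of all genes in cKO minus WT from 0.28 to 0.046 in BMM Ly6Cint and from 0.27 to 0.032 in BMM Ly6Cneg, and the share of higher calls from 63.0% to 51.5% and from 59.2% to 46.7%. For OC minus BMM in cKO Ly6Chi, Ly6Cint and Ly6Cneg the medians moved from -0.27, -0.34 and -0.36 to 0.0085, -0.017 and -0.023. The shares of higher calls there moved from 37.1%, 33.6% and 34.1% to 49.0%, 48.4% and 52.3%. Medians of WT culture comparisons and of subset comparisons moved too, such as 0.24 to 0.026 for Ly6Cneg minus Ly6Chi, cKO BMM. The shares of all genes higher and lower thus depend on the normalization. The causes of these moves were not tested. Low reads limit Tlr5, Tlr9 in cKO, Tlr11 and Tlr12.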
